A study of Mus musculus with 12 samples.

Results

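Tnfrsf12a encodes Fn14, a small member of the tumour necrosis factor (TNF) receptor superfamily and the receptor for the cytokine TWEAK, which is the product of Tnfsf12. The gene was followed here together with 7 relatives in RNA from mouse retinal ganglion cells, the neurons whose axons form the optic nerve, after those axons were crushed. The set held 8 of the 38887 genes measured: the receptors Tnfrsf12a, Tnfrsf1a, Tnfrsf10b, Tnfrsf21 and Fas, the ligand Tnfsf12, and the adaptors Traf2 and Tradd. The genes were taken by symbol and the set was chosen by the higher RPKM of Tnfrsf12a after crush than after sham. The crush values of Tnfrsf12a below are thus a description with no test. Levels are given as RPKM, in which the reads of a gene are divided by its length and by the size of its library. Of the 8 genes, 5 reached 1 RPKM in 3 or more of the 12 libraries and could be tested, and Tnfrsf1a, Tnfrsf10b and Fas could not.

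Receptors of this superfamily sit on the cell surface and are activated by trimeric ligands. Death-domain receptors, among them Tnfrsf1a (TNF receptor type I), Fas, Tnfrsf10b (the mouse TRAIL receptor) and Tnfrsf21 (DR6), recruit adaptors such as Tradd and Fadd and can start cell death as well as NF-kB signalling. Fn14 has no death domain, binds Traf2 and other TRAF adaptors directly, and was first described as a gene induced in fibroblasts by growth factors. DR6 is known in neurons for a part in the breakdown of axons during development and in culture.

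The 12 libraries formed 4 groups of 3. Opn4 crush and Opn4 sham cells came from Opn4CreERT/+;R26-tdTomatof/f mice, in which CreERT is driven from the Opn4 (melanopsin) locus and tamoxifen switches on a red reporter in intrinsically photosensitive ganglion cells. The HB9 crush and HB9 sham groups were taken from the line HB9:GFP, whose transgene marks ON-OFF direction-selective ganglion cells. Mice of both lines, in the sham groups as in the crush groups, had received tamoxifen at 0.124 mg per g body weight on each of 5 days beginning on postnatal day 21. The optic nerve was crushed, or sham surgery done, at postnatal day 42, and cells were picked 3 days later. Each library held 30 hand-picked fluorescent cells, pooled from 3 animals with 10 cells from each, and its RNA was amplified before sequencing. CreERT and tdTomato belong to the Opn4 line and GFP to the HB9 line, so line and cell class cannot be told apart, whereas crush is compared with sham within a line.

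The genes behind the labels, Opn4 and Mnx1, separated the classes in every library. Opn4 was at 1313 to 1433 RPKM in Opn4 crush and 1255 to 1773 RPKM in Opn4 sham libraries, against 1.82 to 24.3 RPKM in HB9 crush and 0.158 to 20.2 RPKM in HB9 sham libraries. Mnx1, the gene of HB9, was at most 0.144 RPKM in any Opn4 library, against 1.13 to 3.06 RPKM in HB9 crush and 20.9 to 41.7 RPKM in HB9 sham libraries. The injury-induced transcription factor Atf3 was at 43.4 to 77.9 RPKM in Opn4 crush against at most 0.200 RPKM in Opn4 sham libraries, and at 473 to 661 RPKM in HB9 crush against at most 0.152 RPKM in HB9 sham libraries. The reads by which each library had been scaled numbered 15104446 to 28195798, and 15021 to 16514 genes per library reached 1 RPKM. Opn4 sham replicate 1 and Opn4 crush replicate 1 stood apart from the rest on the third principal component, at scores of 83.8 and -61.9, and the values of Tradd, Traf2 and other genes that change most without them are given both ways. The summed RPKM of 10 rod photoreceptor genes was 961 to 2707 in Opn4 crush, 584.8 to 1588 in Opn4 sham, 444.8 to 793.7 in HB9 crush and 184.4 to 750.7 in HB9 sham libraries, so that rod transcripts were present in every library and the classes overlapped in them after sham but not after crush.

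The highest level of Tnfrsf12a was in injured HB9 cells. Its RPKM was 78.6, 123 and 99.3 in the 3 Opn4 crush libraries, against 8.02, 3.16 and 9.08 in the 3 Opn4 sham libraries. In HB9 cells it was 785, 676 and 656 RPKM in the crush libraries, against 16.3, 27.5 and 15.0 RPKM in the sham libraries. Every crush library of a class lay above every sham library of that class, and the groups came in the order HB9 crush, Opn4 crush, HB9 sham, Opn4 sham with no overlap between neighbours. Group means were 100.3 ± 22.1 RPKM in Opn4 crush, 6.76 ± 3.16 in Opn4 sham, 706 ± 69.3 in HB9 crush and 19.6 ± 6.88 in HB9 sham libraries (SD, n = 3 each).

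**Figure D1:**
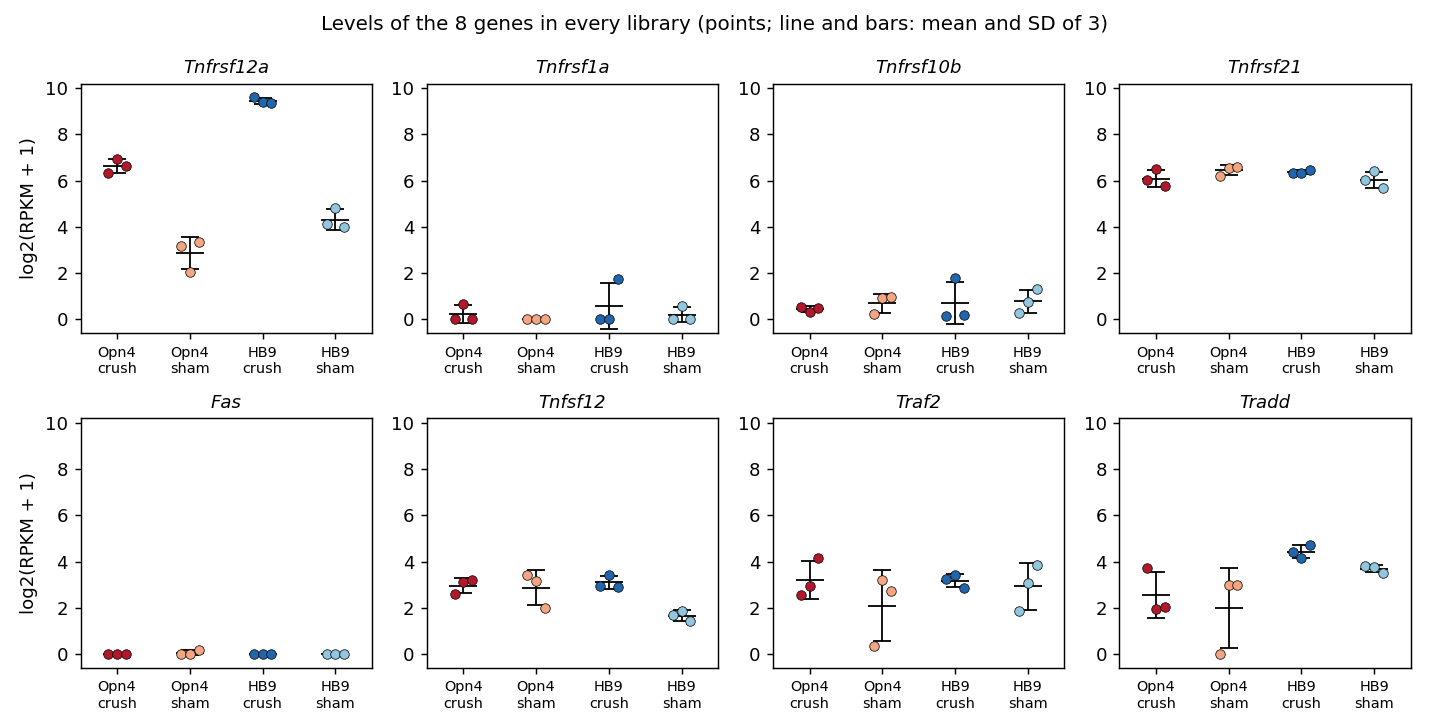
Levels of the 8 genes in each of the 12 libraries, as log2(RPKM + 1), with the mean and SD of the 3 libraries of a group. Tnfrsf12a was at 656 RPKM or more in every HB9 crush library and Tnfrsf21 lay between 50.3 and 96.4 RPKM in all 12 libraries, while Tnfrsf1a, Tnfrsf10b and Fas lay at or near 0.

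Within Opn4 cells the mean of Tnfrsf12a after crush was 14.8 times the sham mean, and the lowest crush library was 8.66 times the highest sham library. Within HB9 cells the mean of Tnfrsf12a after crush was 36.0 times the sham mean, and the lowest crush library was 23.8 times the highest sham library. Adcyap1, a marker of intrinsically photosensitive ganglion cells (ipRGC), rose in the same libraries, at 322.6, 291.7 and 262.9 RPKM in HB9 crush against 38.2, 49.9 and 38.2 RPKM in HB9 sham libraries. Mnx1 fell in them, as given above. Of 4 markers of direction-selective ganglion cells, Mnx1 among them, 1 was lower and 0 were higher after crush at an adjusted p under 0.05 (limma). Their median log2 change was -1.2, and 6.42% of all genes passed. The summed RPKM of the 4 was 1454 to 6484 (median 5954) in HB9 crush against 4894 to 6207 in HB9 sham libraries. The part of these genes in the HB9 values was not tested. On the log2(RPKM + 1) scale the crush difference of Tnfrsf12a was 3.78 ± 0.33 (limma SE, 3 libraries against 3) in Opn4 cells and 5.14 ± 0.33 in HB9 cells. Ranked by increase on that scale Tnfrsf12a was number 16 of 18269 tested genes in Opn4 cells and number 21 in HB9 cells. The crush difference in Opn4 cells minus that in HB9 cells was -1.36 ± 0.47 on the same scale. With the rod genes as a covariate the crush differences were 3.87 in Opn4 cells and 5.26 in HB9 cells, and without the 2 libraries that stood apart the Opn4 value was 4.11.

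The classes were also set against each other at each state of the nerve. The choice of genes rested on the rise from sham to crush, so the sham values of Tnfrsf12a entered it too. The difference between classes after sham was not itself used, but its test is not independent of the choice. The difference after crush rests on the crush values behind the choice and is given with no test. After sham, the 6.76 ± 3.16 RPKM of Tnfrsf12a in Opn4 cells was 0.344 times the 19.6 ± 6.88 RPKM in HB9 cells (log2 difference -1.46 ± 0.33, adjusted p = 0.0121). After crush, its 100.3 ± 22.1 RPKM in Opn4 cells was 0.142 times the 706 ± 69.3 RPKM in HB9 cells (log2 difference -2.82 ± 0.33), and no Opn4 crush library reached any HB9 crush library. The difference after sham did not pass the threshold of an adjusted p under 0.05 with rod genes as a covariate (-1.18, adjusted p = 0.214), with the 6 sham libraries fitted alone (adjusted p = 0.0928), in the voom fit of recovered reads (adjusted p = 0.114) or without HB9 sham replicate 2 (-1.20, adjusted p = 0.0607). In these pools a change in the share of labelled cells that express a gene and a change in RNA per cell cannot be told apart.

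Among the receptors of the superfamily listed in the table, the 29 rows of the 5 receptors above and of 23 others, Tnfrsf12a was the leading transcript in both crush groups and a lesser one in both sham groups. Its share of the summed RPKM of these rows, which are per kilobase and can be set side by side, was 32.1% to 49.2% in Opn4 crush libraries, against 2.05% to 4.59% in Opn4 sham libraries. In HB9 crush libraries it was 81.2% to 84.1%, against 16.6% to 20.0% in HB9 sham libraries. No receptor had a higher group mean in either crush group. In Opn4 sham cells 4 did, Tnfrsf21, Tnfrsf11a, Tnfrsf1b and Relt, and in HB9 sham cells 1 did, Tnfrsf21, which are named here after their values were seen. Among all 18269 tested genes, ranked by mean RPKM, Tnfrsf12a held rank 1780 in Opn4 crush, 11077 in Opn4 sham, 183 in HB9 crush and 6692 in HB9 sham cells.

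**Figure D2:**
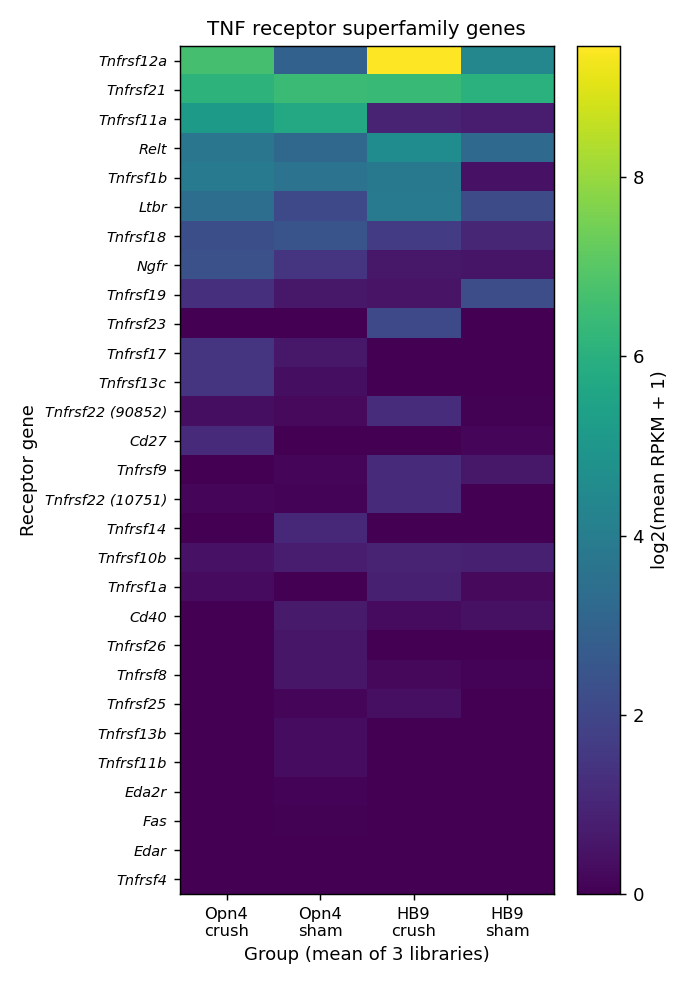
Mean levels of the 29 receptor rows in the 4 groups, as log2(mean RPKM + 1) over 3 libraries; the 2 rows named Tnfrsf22 carry the last digits of their IDs. Tnfrsf12a is the brightest row in both crush columns, at 100.3 RPKM in Opn4 and 706 RPKM in HB9 cells, whereas Tnfrsf21 keeps a similar shade across the 4 columns and 14 of the 24 rows beyond the 5 receptors of the set stay under 1 RPKM in all Opn4 crush libraries.

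The genes whose log2(RPKM + 1) values followed Tnfrsf12a most closely over the 12 libraries were Plekho1 (Pearson r = 0.985), the 2 overlapping rows of Gm13889 (0.984 and 0.980), Cebpb (0.970) and Leprotl1 (0.964). Plekho1 encodes a protein with a pleckstrin homology domain, and Cebpb a basic leucine zipper transcription factor. These correlations rest on the 4 group means of the same libraries to a degree that differed by gene, and so on the rise behind the choice. With the group means taken out, r was 0.869 for Plekho1 and 0.614 and 0.442 for the rows of Gm13889. For Cebpb and Leprotl1 r was then 0.244 and -0.192, so their likeness rests mostly on the group means. These genes were picked by r over the same 12 libraries, so their r within groups is not independent of that pick. How r within groups is spread over all genes is not given. Plekho1 was at 24.7, 32.3 and 27.2 RPKM in Opn4 crush against 9.93, 5.12 and 8.39 RPKM in Opn4 sham libraries. In HB9 cells it was at 56.1, 52.3 and 55.8 RPKM after crush against 11.4, 12.7 and 7.53 RPKM after sham, so its groups had the same order of means as those of Tnfrsf12a over a narrower range. Cebpb was at 9.52, 15.4 and 10.8 RPKM in Opn4 crush against 4.70, 3.83 and 3.59 RPKM in Opn4 sham libraries, and at 31.7, 31.7 and 47.1 RPKM in HB9 crush against 7.61, 6.77 and 5.62 RPKM in HB9 sham libraries. The other tested members were less alike over the 12 libraries, with r of 0.50 for Tradd, 0.39 for Tnfsf12, 0.34 for Traf2 and 0.04 for Tnfrsf21.

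The 250 bases before the RefSeq start of Tnfrsf12a (GRCm38.p6, chr17:23677450-23677699, minus strand) are given with those of Cebpb (chr2:167688665-167688914, plus strand), the transcription factor among the genes of like pattern, as a single example picked after the patterns were seen. Capitals mark matches to the GC box, GGGCGG or its complement CCGCCC.
Tnfrsf12a: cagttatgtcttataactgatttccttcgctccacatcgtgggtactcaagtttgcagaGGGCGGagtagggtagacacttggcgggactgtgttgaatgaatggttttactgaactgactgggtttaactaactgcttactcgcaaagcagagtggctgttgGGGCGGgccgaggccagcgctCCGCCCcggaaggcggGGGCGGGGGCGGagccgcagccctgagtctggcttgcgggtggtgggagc
Cebpb: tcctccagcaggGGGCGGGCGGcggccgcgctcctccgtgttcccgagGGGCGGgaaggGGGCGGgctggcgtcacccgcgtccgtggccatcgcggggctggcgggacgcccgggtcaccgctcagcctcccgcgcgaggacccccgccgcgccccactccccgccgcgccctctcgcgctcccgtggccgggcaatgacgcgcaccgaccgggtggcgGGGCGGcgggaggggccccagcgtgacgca
Both windows held 5 GC boxes, counted on both strands and with overlaps allowed, and so many were found in 1.93% of 32851 RefSeq promoters of the same length, while 32.7% held at least 1. Neither held the AP-1 letters TGANTCA, the cAMP response element TGACGTCA, the C/EBP-ATF letters TGATGNAA or the TATA box TATAAA, which 6.7%, 1.5%, 3.5% and 12.4% of promoters held. The loose NF-kB pattern of GGG, any 5 bases and CC, which can overlap GC boxes, matched 2 times at Tnfrsf12a and 3 times at Cebpb, and 45.8% of promoters held it. What these windows have in common says nothing of the other genes of like pattern. They differed in base composition, with 58.8% G and C at Tnfrsf12a and 81.6% at Cebpb, against a median of 52.4% over all promoters. Of the 8 genes, 5 were matched to RefSeq promoters by symbol, and only that of Tnfrsf12a held more than 1 GC box, with 1 each at Tnfrsf21 and Fas and 0 at Traf2 and Tnfrsf1a.

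None of the other members passed the test after crush. By count, 0 of the 4 other tested members passed the threshold in Opn4 cells, where 1.11% of all 18269 genes did (126 higher, 77 lower), and 0 of 4 in HB9 cells, where 6.42% did (702 higher, 470 lower). At an unadjusted p under 0.05 the counts were 0 in Opn4 and 1 in HB9 cells, where 14.3% and 18.9% of all genes were, and limma voom on recovered reads gave 0 in both. The crush effects differed between the classes for 0 of the 4, against 0.816% of all genes (53 higher and 96 lower in Opn4 cells), with 0 at an unadjusted p under 0.05 and 0 by voom. With median-of-ratios scaling the calls over all genes split into 611 higher and 671 lower in HB9 cells, and into 76 and 86 for the difference of the effects, whose median over all genes was -0.02 instead of -0.13. Between classes, 1 of the 5 tested members, Tnfrsf12a, passed after sham, against 11.8% of all genes, and its sham values are part of the rise behind the choice. Tnfsf12 (limma, unadjusted p = 0.0185) and Tradd (0.0341) were also at an unadjusted p under 0.05 after sham, where 24.7% of all genes were. By voom no member passed after sham. After crush 0 of the 4 others passed, against 12.7%, with 1 at an unadjusted p under 0.05, where 26.5% of all genes were, and 0 by voom.

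**Figure D3:**
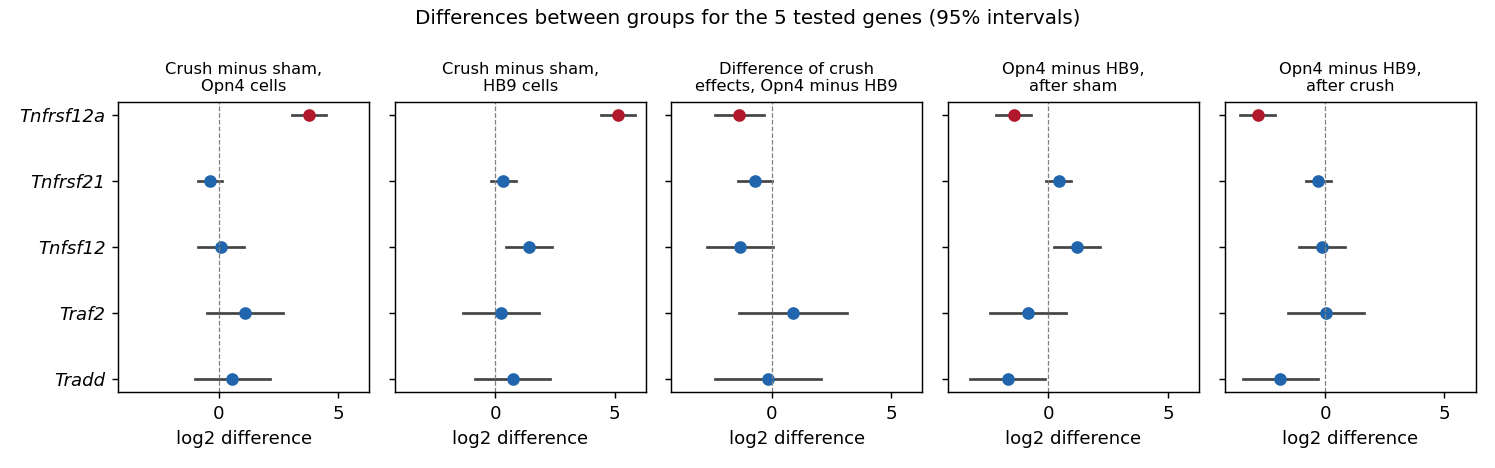
Log2 differences of the 5 tested genes in the 5 comparisons, with 95% limma intervals and a dashed line at 0. Tnfrsf12a is red and was tested only in the panel of class differences after sham. Its intervals in the other panels come from the values behind its choice and are no test against 0. Tnfrsf12a has the highest values in the 2 crush panels, 3.78 in Opn4 and 5.14 in HB9 cells, and the intervals of Tnfrsf21 and Traf2 include 0 in every panel.

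Tnfrsf21, which encodes the death receptor DR6, was the second most abundant receptor in crush cells and the most abundant in sham cells. It measured 64.0, 89.1 and 53.1 RPKM in Opn4 crush libraries, against 72.6, 93.5 and 96.4 RPKM in Opn4 sham libraries. HB9 cells held 78.7, 78.4 and 88.3 RPKM of it after crush, against 63.3, 83.8 and 50.3 RPKM after sham. The groups overlapped in each pair compared, and their means came in the order Opn4 sham (87.5 ± 13.0 RPKM), HB9 crush (81.8 ± 5.65), Opn4 crush (68.7 ± 18.5) and HB9 sham (65.8 ± 16.9; SD, n = 3 each), and the libraries of neighbouring groups in that order overlapped. Its log2 crush difference was -0.37 in Opn4 cells (95% interval -0.88 to 0.15, adjusted p = 0.522) and 0.34 in HB9 cells (-0.18 to 0.85, adjusted p = 0.517). The effects differed by -0.70 (-1.43 to 0.02, adjusted p = 0.406), and the interval thus holds both no difference and a fall of more than 1 log2 unit in Opn4 relative to HB9 cells. The class difference was 0.43 after sham (-0.09 to 0.94, adjusted p = 0.299) and -0.28 after crush (-0.79 to 0.24, adjusted p = 0.502).

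Transcripts of the death receptors Fas and Tnfrsf1a were not detected in most libraries, and those of Tnfrsf10b were low. Fas had 0.129 RPKM in Opn4 sham replicate 3 and 0 in the other 11 libraries; the limit that a count of 0 allows, 3 reads, is 0.0516 to 0.0963 RPKM across libraries and covers counting error only. Tnfrsf1a was above 0 in 3 libraries, with 0.596 RPKM in Opn4 crush replicate 2, 2.33 RPKM in HB9 crush replicate 3 and 0.501 RPKM in HB9 sham replicate 2, and its limit was 0.0411 to 0.0767 RPKM. Each of the pair was thus at 0 in 9 or more of the 12 libraries.

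Tnfrsf10b was detected in all 12 libraries, above a limit of 0.0195 to 0.0364 RPKM, at 0.455, 0.244 and 0.417 RPKM in Opn4 crush against 0.165, 0.898 and 0.924 RPKM in Opn4 sham libraries. In HB9 cells it was at 0.109, 2.40 and 0.131 RPKM after crush against 0.197, 0.691 and 1.44 RPKM after sham. The crush and sham libraries overlapped in both classes.

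Tnfsf12, the gene of the Fn14 ligand TWEAK, was low in every group. It was at 5.05, 7.62 and 8.08 RPKM in Opn4 crush libraries, against 9.83, 8.0 and 3.0 RPKM in Opn4 sham libraries. In HB9 cells it was at 6.78, 9.68 and 6.48 RPKM after crush, against 2.20, 2.68 and 1.70 RPKM after sham. The Opn4 groups overlapped and the HB9 groups did not. Its log2 crush difference was 0.09 ± 0.45 in Opn4 cells (adjusted p = 0.957). In HB9 cells it was 1.43 ± 0.45 (adjusted p = 0.0828), which among its 14 alternatives passed the threshold only when the 6 HB9 libraries were fitted alone (adjusted p = 0.0384). The effects differed by -1.34 ± 0.63 (adjusted p = 0.402). Between classes it was 1.21 ± 0.45 after sham (adjusted p = 0.107, or 0.0373 without Opn4 sham replicate 3) and -0.13 ± 0.45 after crush (adjusted p = 0.887). After crush the mean of the receptor row Tnfrsf12a, 100.3 RPKM in Opn4 and 706 RPKM in HB9 cells, was above that of the ligand row, 6.92 RPKM in Opn4 and 7.65 RPKM in HB9 cells.

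These reads could not be assigned to Tnfsf12 alone. The deposited row (chr11:69682577-69696098, minus strand, mm10) has the same span as the row BC096441, which RefSeq holds as the readthrough gene Tnfsfm13, and it contains the whole span of Tnfsf13, the gene of the related ligand APRIL. RefSeq ends Tnfsf12 itself at 69686240, short of Tnfsf13, and the gene length recovered from the row was 3019 bases against 1515 bases of Tnfsf12 exons in GENCODE M21. BC096441 was at 6.84, 11.8 and 6.26 RPKM in HB9 crush against 1.64, 2.58 and 1.67 RPKM in HB9 sham libraries, close to the row of Tnfsf12 in each library. Tnfsf13 was at 1.79, 8.13 and 2.45 RPKM in HB9 crush against 1.06, 0.174 and 0.0922 RPKM in HB9 sham libraries (log2 difference 1.68 ± 0.69, adjusted p = 0.194). The antisense row 2010012P19Rik, at up to 2.75 RPKM, covers 8565 bases of the same span.

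**Figure D4:**
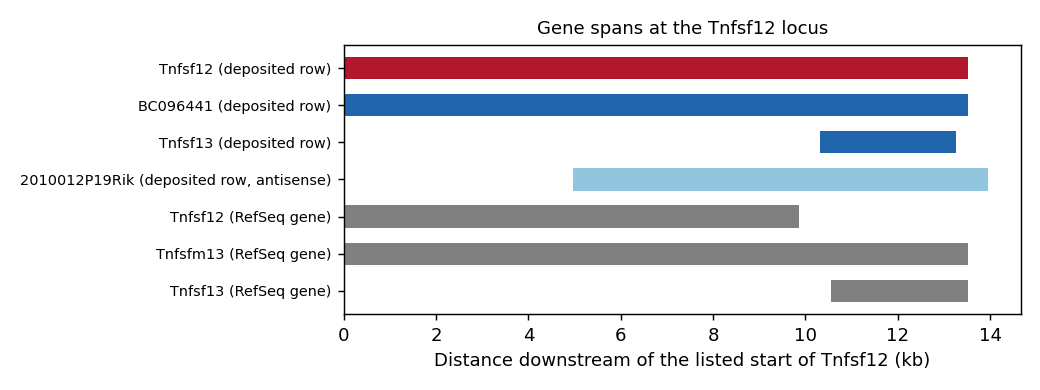
Spans of the deposited rows and RefSeq genes at the Tnfsf12 locus, drawn by distance in kilobases from the listed start of Tnfsf12, which lies on the minus strand. The deposited row of Tnfsf12 (red) covers the same 13522 bases as BC096441 and reaches over Tnfsf13, whereas the RefSeq gene Tnfsf12 stops before it.

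Both adaptors were at or under 25.3 RPKM in every library and varied widely among Opn4 libraries. Traf2, the TRAF adaptor that links receptors of both kinds to NF-kB and JNK signalling, was at 4.81, 6.69 and 16.6 RPKM in Opn4 crush libraries, against 0.257, 8.15 and 5.63 RPKM in Opn4 sham libraries. The HB9 libraries had 8.40, 9.59 and 6.32 RPKM after crush, against 2.61, 7.42 and 13.5 RPKM after sham. The groups overlapped in each pair compared. Its log2 crush difference was 1.12 ± 0.74 in Opn4 cells (adjusted p = 0.527) and 0.24 ± 0.74 in HB9 cells (adjusted p = 0.912), and between classes it was -0.84 ± 0.74 after sham (adjusted p = 0.534) and 0.04 ± 0.74 after crush (adjusted p = 0.983). The effects differed by 0.88 ± 1.04 (adjusted p = 0.793). Without the libraries that stood apart, 1 of them at 0.257 RPKM, the class difference after sham was 0.034 (adjusted p = 0.984) and the crush difference in Opn4 cells 0.58 (adjusted p = 0.755). The pseudogene Gm13433, on the opposite strand over 240 bases of Traf2, reached 39.7 RPKM, and reads shared with it were not separable here.

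Tradd, the death-domain adaptor of Tnfrsf1a, was lower in every Opn4 than in every HB9 library of the same surgery, without passing the threshold. It was at 12.2, 2.84 and 3.09 RPKM in Opn4 crush and 20.5, 16.7 and 25.3 RPKM in HB9 crush libraries. After sham it was at 0, 6.95 and 6.83 RPKM in Opn4 cells and 12.9, 12.7 and 10.4 RPKM in HB9 cells. The class difference was -1.87 ± 0.72 after crush (adjusted p = 0.115) and -1.71 ± 0.72 after sham (adjusted p = 0.159). Both Opn4 libraries that stood apart held the extreme Tradd value of their group, 12.2 RPKM in Opn4 crush replicate 1 and 0 in Opn4 sham replicate 1, and without them the class difference was -2.44 after crush (adjusted p = 0.00119) and -0.72 after sham (adjusted p = 0.217). The log2 crush difference was 0.58 ± 0.72 in Opn4 cells (adjusted p = 0.758), or -0.99 without those libraries (adjusted p = 0.245), and 0.73 ± 0.72 in HB9 cells (adjusted p = 0.675), where the crush and sham groups did not overlap. The effects differed by -0.15 ± 1.02 (adjusted p = 0.970), or by -1.73 without those libraries (adjusted p = 0.135).

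Of 24 rows of other receptors, 7 could be tested. After crush, 0 of 7 passed in Opn4 cells, against 1.11% of all genes (median log2 change of the 7, 0.58, against -0.02 over all genes). At an unadjusted p under 0.05 there were 0, against 14.3% of all genes, and voom gave 0. In HB9 cells 1 of 7 passed, against 6.42% of all genes (median 0.65 against 0.11), and 1 to 3 over the alternatives. At an unadjusted p under 0.05 there were 4, against 18.9% of all genes, and voom gave 1. The receptor that rose in HB9 cells was Tnfrsf1b, TNF receptor type II, at 21.3, 11.7 and 6.15 RPKM after crush against 1.06, 0.117 and 0 RPKM after sham (log2 difference 3.26 ± 0.60, adjusted p = 0.00518). In Opn4 cells Tnfrsf1b was at 16.4, 20.5 and 5.40 RPKM after crush against 5.88, 10.7 and 17.3 RPKM after sham, with overlap, and its crush effects differed between the classes by -3.02 (adjusted p = 0.135). Between classes, where 11.8% of all genes passed after sham, 2 of 7 were higher in Opn4 sham than in HB9 sham cells, Tnfrsf11a, the receptor RANK (log2 difference 5.02 ± 0.54, adjusted p = 5.9e-05), and Tnfrsf1b (3.10 ± 0.60, adjusted p = 0.00431). Tnfrsf1b did not pass after sham with rod genes as a covariate (2.70, adjusted p = 0.106). After crush, where 12.7% of all genes passed, 1 of 7 was higher in Opn4 than in HB9 cells, Tnfrsf11a, at 28.4, 49.5 and 25.5 RPKM in Opn4 crush against 0.171, 0 and 2.57 RPKM in HB9 crush libraries (4.40 ± 0.54, adjusted p = 0.000216).

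Transcripts of the ligands were scarce. Of 17 other ligands, 3 could be tested and 0 passed in any of the 5 comparisons. At an unadjusted p under 0.05 there was 1 for crush in HB9 cells, Tnfsf13 above, against 18.9% of all genes, and voom gave 0 in each comparison. The summed RPKM of the 17 was 1.27 to 4.68 in Opn4 crush and 6.20 to 13.7 in Opn4 sham libraries, and 4.74 to 17.9 in HB9 crush and 0.119 to 8.40 in HB9 sham libraries. Tnf and Fasl, the ligands of Tnfrsf1a and Fas, were at 0 in all 12 libraries.

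Of 28 further adaptors and enzymes of receptor signalling, 23 could be tested and 0 passed after crush in either class, with 0 by voom. At an unadjusted p under 0.05 there were 3 in Opn4 and 0 in HB9 cells, against 14.3% and 18.9% of all genes. Their median log2 change was 0.11 in Opn4 and 0.02 in HB9 cells. After sham, where 11.8% of all genes passed, 2 of 23 were lower in Opn4 than in HB9 cells, the kinase Map3k5 (ASK1, -2.55 ± 0.67, adjusted p = 0.0263) and the ubiquitin ligase Traf6 (-1.79 ± 0.48, adjusted p = 0.0273). After crush Map3k5 was lower in Opn4 cells (-2.53 ± 0.67, adjusted p = 0.0263), and Birc3, an inhibitor of apoptosis that binds Traf2, was higher (2.15 ± 0.51, adjusted p = 0.0145). Map3k5 was at 0, 0 and 3.35 RPKM in Opn4 crush against 10.5, 7.28 and 7.86 RPKM in HB9 crush libraries, and Birc3 at 6.94, 4.40 and 2.70 RPKM in Opn4 crush against 0.352, 0.106 and 0.204 RPKM in HB9 crush libraries. Each of these 4 calls was lost with rod genes as a covariate (adjusted p from 0.0651 to 0.523), and each was also lost without some single libraries: Birc3 without HB9 crush replicate 2 (adjusted p = 0.0507), Traf6 without Opn4 sham replicate 1 or 2 or HB9 sham replicate 2 or 3 (up to 0.12), and Map3k5 without any 1 of the 6 libraries (up to 0.0985 after sham and 0.0911 after crush) except Opn4 sham replicate 2 after sham and Opn4 crush replicate 3 after crush. Without the libraries that stood apart the calls of Map3k5 (0.0751 after sham, 0.0696 after crush) and Traf6 (0.0714) were lost. The count after crush was 2 of 23, against 12.7% of all genes, and ranged from 1 to 5 with 1 library left out and from 0 to 5 over all alternatives; that after sham, also 2, ranged from 0 to 2.

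Of 16 genes of NF-kB subunits, inhibitors and kinases, 13 could be tested and 0 passed after crush in either class, with 0 by voom. At an unadjusted p under 0.05 there were 2 in Opn4 and 1 in HB9 cells, against 14.3% and 18.9% of all genes. Median log2 changes were 0.33 in Opn4 and 0.43 in HB9 cells. Nfkbia, the inhibitor IkB-alpha and itself a target of NF-kB, was higher in Opn4 than in HB9 cells after crush, at 35.4, 18.3 and 27.7 RPKM in Opn4 crush against 3.98, 5.98 and 3.79 RPKM in HB9 crush libraries (2.31 ± 0.47, adjusted p = 0.00633). It was the 1 call among the 13 in that comparison, where 12.7% of all genes passed. After sham Nfkbia was at 10.4, 41.9 and 25.4 RPKM in Opn4 and 9.72, 16.7 and 18.4 RPKM in HB9 libraries. Its crush and sham libraries thus overlapped in Opn4 cells, whereas every HB9 crush library lay below every HB9 sham library.

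Of 16 genes that NF-kB induces in many cells, 5 could be tested. In HB9 cells 6.42% of all genes passed, and the median log2 change of all genes was 0.11. Of the 5, 3 passed as lower after crush and 0 as higher (median of the 5, -1.24). The 3 were the metalloprotease Mmp9 (-3.12 ± 0.62, adjusted p = 0.00897), the early response gene Ier3 (-1.31 ± 0.30, adjusted p = 0.0215) and the mitochondrial superoxide dismutase Sod2 (-1.24 ± 0.18, adjusted p = 0.00129). Sod2 was at 45.4, 41.5 and 47.2 RPKM in HB9 crush against 102.6, 104 and 113 RPKM in HB9 sham libraries. The other tested genes, Csf1 and Gadd45b, did not pass and had higher means after crush. Csf1 was at 29.25, 12.76 and 0 RPKM in HB9 crush against 1.422, 1.342 and 1.014 RPKM in HB9 sham libraries. The means of Gadd45b were 7.36 RPKM in HB9 crush and 3.89 RPKM in HB9 sham libraries. In Opn4 cells 0 of 5 passed (median 0.91), against 1.11% of all genes, with 0 by voom. At an unadjusted p under 0.05 there were 3, against 14.3% of all genes. Csf1 was at 63.16, 44.41 and 35.25 RPKM in Opn4 crush against 9.442, 7.411 and 6.585 RPKM in Opn4 sham libraries. Gadd45b, Ier3 and Mmp9 also had higher means in Opn4 crush than in Opn4 sham libraries. Sod2 had a lower mean, 42.55 RPKM against 63.86 RPKM. Between classes, where 11.8% of all genes passed after sham, the same 3 genes were lower in Opn4 than in HB9 cells after sham (Mmp9 by -6.62, Ier3 by -1.98 and Sod2 by -0.74 on the log2 scale, adjusted p = 2.21e-05, 0.000968 and 0.02), and Gadd45b, a stress-induced gene of DNA repair and cell cycle arrest, was higher (3.15 ± 0.49, adjusted p = 0.00107). After crush, where 12.7% of all genes passed, Gadd45b was higher in Opn4 than in HB9 cells (3.20 ± 0.49, adjusted p = 0.00103), at 74.4, 64.9 and 71.3 RPKM in Opn4 crush against 10.9, 3.39 and 7.82 RPKM in HB9 crush libraries, and Mmp9 was lower (-2.04 ± 0.62, adjusted p = 0.049). The last call was lost under 11 of 15 alternatives, among them the fits without Opn4 crush replicate 1 or any 1 HB9 crush library (adjusted p up to 0.139) and without the libraries that stood apart (0.0579). That of Ier3 in HB9 cells was lost without 5 of the 6 libraries, all but HB9 crush replicate 1 (up to 0.092), and that of Sod2 after sham without Opn4 sham replicate 3 or any 1 HB9 sham library (up to 0.0764). With rod genes as a covariate the sham calls of Sod2 (adjusted p = 0.165) and Gadd45b (0.0553) were lost too, as was that of Ier3 in HB9 cells (0.0509). A pseudocount of 0.1 ended the call of Mmp9 in HB9 cells (0.238).

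**Figure D5:**
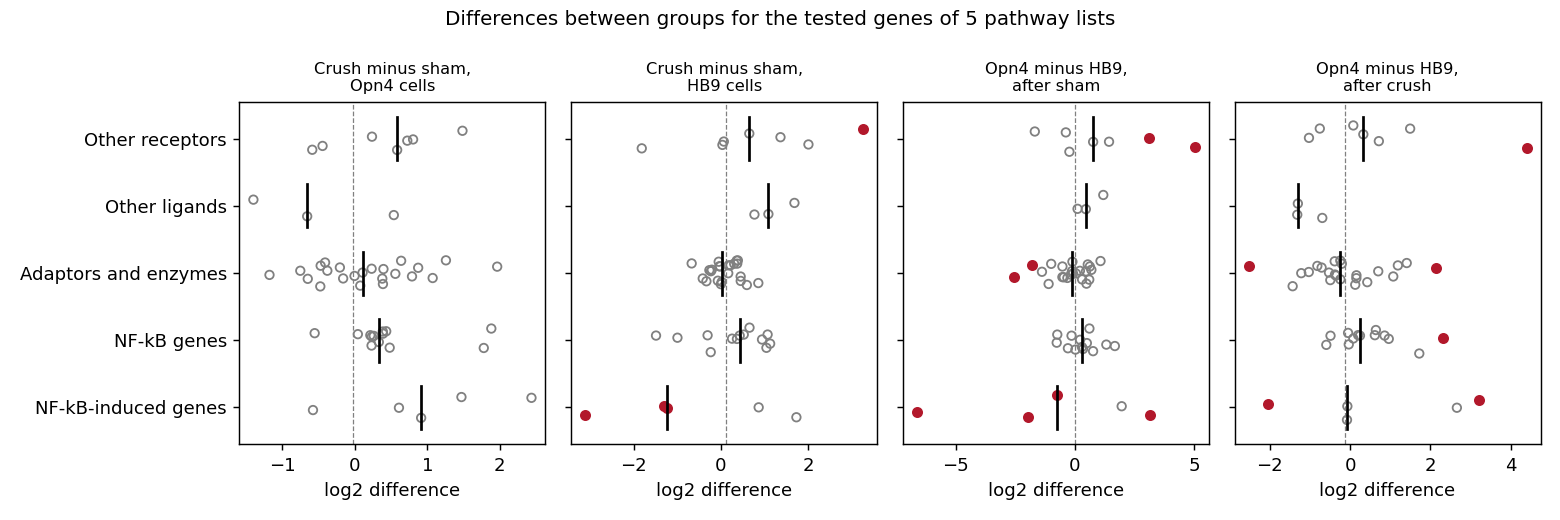
Log2 differences of the tested genes in the 5 pathway lists, in 4 of the comparisons; filled red points passed an adjusted p under 0.05, open points did not, black bars are list medians and dashed lines the median of all genes. Few points are red: in the HB9 crush panel Tnfrsf1b at 3.26 among the receptors and 3 NF-kB-induced genes below 0, and none in the Opn4 crush panel.

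Markers of other cells were read beside these values. Of 10 microglial and macrophage genes, 6 were at 0 in every HB9 crush library, with Ptprc and Tyrobp among them, and 8 stayed under 1 RPKM. The exceptions were Csf1r and Cd68. Csf1r was at 4.938, 5.256 and 5.198 RPKM in HB9 crush against 3.93, 3.016 and 3.605 RPKM in HB9 sham libraries, without overlap. Its log2 difference was 0.446 (limma, adjusted p = 0.402). In Opn4 cells Csf1r was at 0.6143, 4.903 and 5.592 RPKM after crush against 2.619, 3.619 and 3.294 RPKM after sham. Cd68 was at 92.9, 116.5 and 125.2 RPKM in HB9 crush against 0.0354, 0.129 and 0.0801 RPKM in HB9 sham libraries. Its log2 difference was 6.69 (limma, adjusted p = 0.000436). In Opn4 cells Cd68 was at 13.0, 0 and 0 RPKM after crush against 0, 0.158 and 2.15 RPKM after sham. The summed RPKM of the 10 genes was 5.59 to 14.6 in Opn4 crush and at most 6.62 in Opn4 sham libraries, and 98.4 to 130.4 in HB9 crush and 3.19 to 4.20 in HB9 sham libraries. The 8 endothelial and pericyte genes summed to at most 8.16 RPKM in any library. The 10 Muller glia and astrocyte genes summed to 249.2 to 498.5 RPKM in Opn4 crush and 317.5 to 339 RPKM in Opn4 sham libraries, and to 90.8 to 209.6 RPKM in HB9 crush and 172.8 to 223.7 RPKM in HB9 sham libraries, so that every Opn4 library lay above every HB9 library of the same surgery. Of the 5 of these genes that could be tested, the median log2 change after crush in HB9 cells was 1.25: Vim rose (3.32, adjusted p = 0.016, lost under 5 of 14 alternatives), at 40.2, 33.2 and 6.31 RPKM in HB9 crush against 2.50, 1.93 and 0 RPKM in HB9 sham libraries, and Dkk3 fell (-1.53, adjusted p = 0.0215). The 5 ipRGC genes summed to 2161 to 2652 RPKM in Opn4 crush and 2211 to 3163 RPKM in Opn4 sham libraries, and to 274.2 to 349.4 RPKM in HB9 crush and 38.4 to 60.5 RPKM in HB9 sham libraries. After crush in HB9 cells 2 of the 5 rose, Adcyap1 (2.77, adjusted p = 2.07e-05) and Eomes (2.32, adjusted p = 0.000837), with Eomes at 6.88, 7.90 and 9.45 RPKM in HB9 crush against 1.68, 1.19 and 0 RPKM in HB9 sham libraries. The 5 amacrine cell genes summed to 50.5 to 129.2 RPKM in HB9 crush against 3.10 to 25.3 RPKM in HB9 sham libraries, and the 7 ganglion cell genes to 4301 to 4846 RPKM in HB9 crush against 7105 to 7974 RPKM in HB9 sham libraries. In Opn4 cells these lists were at 46.3 to 60.7 RPKM after crush against 19.5 to 83.7 RPKM after sham for amacrine genes, and at 3735 to 4413 RPKM after crush against 4653 to 5040 RPKM after sham for ganglion cell genes. The part of these genes in the values of the TNF receptor family was not tested.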

How the data were processed

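The deposited values are RPKM, computed by the authors for each gene in each library on build mm10. TopHat2 2.0.11, Bowtie and edgeR 3.14.0 are listed in the submitters' processing notes with no role, and how reads were counted, or whether strand was used, is not given in the sources used here. Reads recovered from RPKM steps (100% of short-gene values within 0.01 read of a whole number) summed to 222.0% to 239.9% of the scaling totals, so some reads counted for several genes, or the totals cover other reads.

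Genes that reached 1 RPKM in 3 or more of 12 libraries (18269) entered 1 limma 3.58.1 fit (R 4.3.3) of log2(RPKM + 1) with 4 group means and an intensity trend. Fold changes of low genes are understated on that scale. Tests are two-sided with Benjamini-Hochberg adjustment over all tested genes and a threshold of 0.05, and were tested on simulated data. Alternatives were a pseudocount of 0.1, no or a stricter filter, median-of-ratios scaling, fits of only the groups compared, a replicate block, a rod covariate, voom on recovered reads, each library left out, and, chosen after seeing the data, 2 libraries left out. Replicates are separate pools of animals.

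The members and lists were chosen with earlier results of these data known. Named genes are the 8 members, list genes past the threshold (up to 4 per list and comparison), the 5 genes most correlated with Tnfrsf12a, genes overlapping a member, and label checks; other genes named were chosen after their values were seen. The class difference of Tnfrsf12a after crush, planned as a test, is given without one because it uses the values behind the choice. Its test after sham is kept, although the sham values are part of the rise behind the choice. The promoter of 1 gene of like pattern is not reported here. Intervals are 95%.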

Additional observations from a re-analysis of the deposited data

Results flagged for a closer look

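The difference of the crush effects passed an adjusted p under 0.05 for 6 tested genes named above that are not members. Over all 18269 tested genes 0.816% passed. The 6 were flagged after their values were seen, and most of these calls were lost under some alternatives, as given here. For Cd68 the effect in Opn4 cells minus that in HB9 cells was -6.04 on the log2(RPKM + 1) scale (limma, adjusted p = 0.0382), and was higher in 3 of 3 HB9 crush libraries than in any HB9 sham library. That call was lost under 16 of 20 alternatives, 11 of them single libraries left out, with adjusted p from 0.00175 (without Opn4 crush replicate 1) to 0.182. Mmp9 differed by 4.59 (adjusted p = 0.0318, lost under 13 of 20 alternatives, 10 of them single libraries left out, with adjusted p up to 0.302 by voom), with 15.2, 12.2 and 12.6 RPKM in HB9 crush against 114.8, 114.1 and 141.3 RPKM in HB9 sham libraries. In Opn4 cells Mmp9 was at 0, 5.93 and 5.10 RPKM after crush against 0, 0 and 0.986 RPKM after sham. For 4 marker and injury genes, differences are likewise Opn4 minus HB9. Adcyap1 differed by -2.55 (adjusted p = 0.005) and kept its call under all 20 alternatives. Eomes differed by -3.11 (adjusted p = 0.00839) and Atf3 by -3.18 (adjusted p = 0.00742), each lost under 2 of 20. Mnx1 differed by 3.24 (adjusted p = 0.0281, lost under 10 of 20, 6 of them single libraries left out).

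The receptor gene Cd27 was at or near 0 in most libraries and did not reach 1 RPKM in 3 libraries, so it was not tested. Its means moved in opposite directions in the 2 classes, a difference of 1.05 on the same scale, or 0.52 without Opn4 crush replicate 1. In HB9 cells that movement lay at or under 0.173 RPKM. Cd27 was at 2.98, 0.687 and 0.0203 RPKM in Opn4 crush against 0 in all Opn4 sham libraries, and at 0 in all HB9 crush libraries against 0.0191, 0.0872 and 0.173 RPKM in HB9 sham libraries.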

How the results depend on the processing

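Counts of tested members past the threshold moved in 3 comparisons. For crush in HB9 cells the count was 1 (Tnfsf12) instead of 0 when only the groups compared were fitted. After sham the class count of 1 became 0 with only the groups compared, with the rod covariate and by voom, and ranged from 0 to 2 with 1 library left out (0 without HB9 sham replicate 2, 2 without Opn4 sham replicate 3). After crush the class count, which leaves out Tnfrsf12a, was 1 (Tradd) instead of 0 without the libraries that stood apart. No other alternative moved these counts. For Tnfrsf12a the crush difference ranged from 3.39 to 4.11 in Opn4 and 4.99 to 5.40 in HB9 cells over all alternatives.

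Signs turned only for members that passed no test in that comparison. With the rod covariate they were -0.013 for Tnfsf12 and crush in Opn4 cells and 0.83 for Traf2 between classes after sham. Without the libraries that stood apart they were 0.052 for Tnfsf12 after crush, 0.034 for Traf2 after sham and -0.99 for Tradd and crush in Opn4 cells. The difference of crush effects for Tradd was 0.75 with a pseudocount of 0.1 and 1.88 by voom. With 1 library left out, the range was -0.34 to 0.38 for Tnfsf12 and crush in Opn4 cells, -0.241 to 0.052 for Tnfsf12 between classes after crush, -0.30 to 0.71 for Traf2 and crush in HB9 cells, -1.40 to 0.034 and -0.43 to 0.37 for Traf2 between classes after sham and after crush, -0.42 to 1.08 for Tradd and crush in Opn4 cells, and -1.15 to 0.35 for its difference of effects. The cause was not tested.

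Over all genes, fitting only the groups compared gave 13 calls for crush in Opn4 cells against 203, and 1939 against 1172 in HB9 cells. The rod covariate gave 809 class calls after sham against 2148, and 971 after crush against 2325. Voom gave 98 calls against 149 for the difference of the effects. With 1 library left out, calls for crush in HB9 cells numbered 645 to 777 and those for the difference 61 to 156.

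The replicate numbers did not pair crush with sham libraries (correlations of same-numbered deviations from -0.02 to 0.08). The replicate block left the member counts at 0, 0, 0, 1 and 0, and called 151 genes for crush in Opn4 cells and 98 for the difference. Each library holds 30 cells of amplified RNA, so the limits from reads given for Fas and Tnfrsf1a cover counting error only. Tnfrsf1a was at 2.33 RPKM in HB9 crush replicate 3 and at 0 in HB9 crush replicates 1 and 2. The cause of such differences between libraries was not tested.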
